A study of Homo sapiens with 6 samples.

Results

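6 genes of the NF-kB pathway were followed in human proximal tubule cells that carried an shRNA against PGC-1alpha: NFKB1, NFKB2, MAP3K8, ZC3H12A, PIM2 and TNF. They were the genes of 6 listed symbols and were chosen from 14884 named genes with their values in this same comparison in view, so their differences are given as a description and without a test. Each gene is given by its brightest probe set, a choice that mattered for TNF alone, since the other 5 genes had 1 probe set each.

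HK2, an established human line of kidney proximal tubule epithelium, was grown in medium with serum. The cells had been transduced with lentivirus from the vector pLKO.1 that expressed either shPGC-1alpha, directed against the transcriptional coactivator PGC-1alpha, or shGFP, directed against a protein that human cells do not make, and both groups had been selected with puromycin. Total RNA was taken on day 5 after transduction, when 24 hours had passed without puromycin, and was read on 3 Affymetrix arrays for shPGC-1alpha and 3 for shGFP. The deposited values are log2 expression values, on which a difference of 1 is a doubling, and the number of arrays limits their precision.

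Array medians lay between 5.00 and 5.04, and arrays correlated at r = 0.988 to 0.992 within groups and at r = 0.982 to 0.987 between groups. The target of the shRNA, PPARGC1A, had 0 probe sets named here, so the labels were not checked against it. Of the proximal tubule markers, the kidney transcription factor PAX8 read 11.79 to 11.88 with shPGC-1alpha and 11.37 to 11.50 with shGFP, whereas the endocytic receptors LRP2 and CUBN, picked out after their values were seen, stayed on every array below 4.43, the level under which 20% of named genes lie. The other 2 measured markers lay above that level on every array, the water channel AQP1 at 5.76 to 6.16 and the brush border peptidase ANPEP at 4.48 to 4.82 over both groups. Of all named genes, 21.8% passed a limma adjusted p of 0.05, 9.58% as genes that rose with shPGC-1alpha and 12.2% as genes that fell.

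NF-kB is a family of dimeric transcription factors that inhibitor proteins hold in the cytoplasm until a kinase cascade, started by cytokine or microbial receptors, marks those inhibitors for destruction. NFKB1 and NFKB2 encode precursors that act as inhibitors themselves and, once processed, as DNA-binding subunits, and both are known targets of NF-kB. MAP3K8 is a kinase that the NFKB1 precursor binds and holds inactive, and once released it activates the MEK and ERK kinases. ZC3H12A is an RNase that degrades inflammatory mRNAs and so restrains the response, PIM2 is a constitutively active survival kinase whose activity follows its amount, and TNF is a cytokine that both starts the pathway and is among its products. In the injured kidney, tubule cells are known to use this pathway to make chemokines.

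The promoters of 4 of the 6 genes are shown so that genes with and without a match to the kappaB site, the DNA element to which NF-kB dimers bind, can be read side by side. Sequences are from RefSeq on GRCh38.p14, which held all 6 genes in 11 start-site windows. The 250 bases before each start were searched on both strands for the kappaB consensus GGGRNWYYCC, a motif of 10 bases. In it R is A or G, W is A or T, Y is C or T and N is any base. Capitals mark the match. The window of NFKB1, chr4:102501109-102501358 on the plus strand, also overlaps NFKB1-AS1, and that of ZC3H12A, chr1:37474330-37474579 on the plus strand, overlaps LITATS1. The others are MAP3K8, chr10:30433771-30434020 on the plus strand, and PIM2, chrX:48919025-48919274 on the minus strand.
NFKB1: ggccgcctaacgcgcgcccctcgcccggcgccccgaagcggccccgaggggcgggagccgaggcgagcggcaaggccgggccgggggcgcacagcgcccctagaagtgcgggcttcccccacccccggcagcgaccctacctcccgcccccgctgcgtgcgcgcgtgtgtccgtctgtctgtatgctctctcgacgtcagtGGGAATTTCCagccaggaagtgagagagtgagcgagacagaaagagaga
MAP3K8: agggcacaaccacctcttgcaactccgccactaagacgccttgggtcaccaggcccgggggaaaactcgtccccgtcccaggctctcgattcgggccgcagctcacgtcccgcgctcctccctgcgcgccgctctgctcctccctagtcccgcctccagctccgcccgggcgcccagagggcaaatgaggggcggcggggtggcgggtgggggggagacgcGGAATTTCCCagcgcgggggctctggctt
ZC3H12A: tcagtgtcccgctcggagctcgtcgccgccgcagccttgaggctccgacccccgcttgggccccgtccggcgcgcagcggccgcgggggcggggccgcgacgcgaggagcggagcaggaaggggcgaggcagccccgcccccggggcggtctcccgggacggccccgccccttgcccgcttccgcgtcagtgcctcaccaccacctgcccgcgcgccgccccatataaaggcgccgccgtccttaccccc
PIM2: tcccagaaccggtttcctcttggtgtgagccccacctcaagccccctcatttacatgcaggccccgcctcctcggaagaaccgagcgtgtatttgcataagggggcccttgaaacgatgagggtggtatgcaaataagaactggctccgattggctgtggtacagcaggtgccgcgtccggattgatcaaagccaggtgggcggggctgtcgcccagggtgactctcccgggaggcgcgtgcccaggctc

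NFKB1 held GGGAATTTCC with its first base 49 bases before the first of its 2 starts and no match before the other. MAP3K8 held GGGAAATTCC on the strand opposite to the one printed, 29 bases before the first of its 3 starts. The windows of ZC3H12A, PIM2 and TNF, with 1 start each, had 0 matches to this consensus. Sites that depart from it at any base were not counted, so this does not show that a window lacks a kappaB site. NFKB2 had none before the first of its 3 starts and matches before both of the others, which lie inside the gene and are shown as stretches of 30 bases, at chr10:102394461-102394490 and chr10:102395674-102395703 on the plus strand. In the first of them overlapping matches on both strands make a run of 11 capitals, and each of these starts had a further match that is not shown.
NFKB2, start 2: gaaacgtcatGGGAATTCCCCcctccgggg
NFKB2, start 3: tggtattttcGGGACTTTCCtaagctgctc
So 3 of the 6 genes, and 6 of their 11 windows, held the consensus. Of all 35116 windows searched 5.21% did, and of all 27305 genes 6.28%. The 6 were chosen as pathway genes, and windows per gene and GC content were not matched, so no excess is read from these shares. Windows of 1 gene can overlap, and the 2 windows nearest to each other in MAP3K8 share 1 match. A match describes these letters and not binding, which the arrays do not measure. The GC content of the 11 windows ran from 57.2% in TNF to 78.8% in ZC3H12A.

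Of the 6 genes, 5 were higher on every shPGC-1alpha array than on any shGFP array and TNF overlapped. Groups that did not overlap in this direction were seen for 17.2% of all genes, and nothing is read from this since the 6 were chosen on the same contrast. PIM2, MAP3K8 and ZC3H12A differed by 4.14-fold to 5.57-fold, and NFKB1 and NFKB2 by 1.74-fold and 1.71-fold. In bulk RNA, more cells that express a gene and more RNA per cell cannot be told apart.

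**Figure D1:**
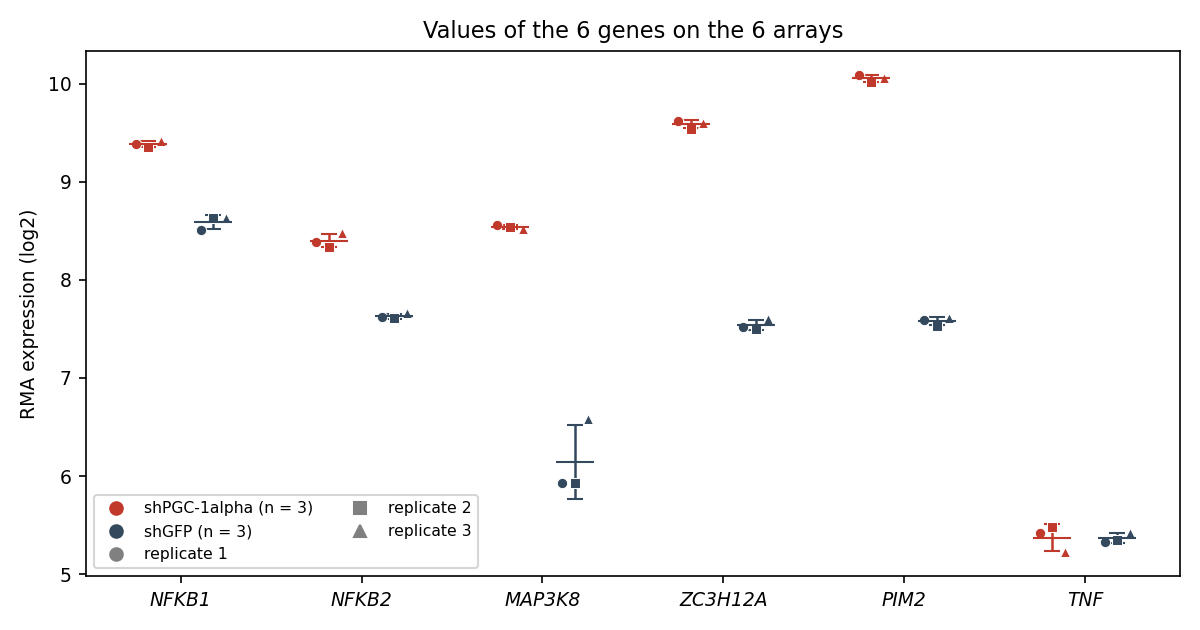
Log2 RMA expression of the 6 genes on each array, shPGC-1alpha in red left of shGFP in dark blue, with symbols for replicates 1 to 3, the group mean as a horizontal line and the SD as the error bar (n = 3). The groups are apart for 5 genes and overlap for TNF, and the shGFP arrays of MAP3K8, from 5.92 to 6.58, are the widest group.

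NFKB1 and NFKB2 encode the precursor subunits. NFKB1, on chromosome 4 at 102501359 to 102617302, read 9.38, 9.35 and 9.42 on shPGC-1alpha replicates 1, 2 and 3, against 8.51, 8.63 and 8.63 on the shGFP replicates. NFKB2, on chromosome 10 at 102394110 to 102402529, read 8.39, 8.34 and 8.48 with shPGC-1alpha, against 7.62, 7.61 and 7.66 with shGFP. In both genes the lowest shPGC-1alpha array lay above the highest shGFP array, by 0.72 in NFKB1 and 0.68 in NFKB2. The log2 differences were 0.80 (SE 0.07) for NFKB1 and 0.77 (SE 0.07) for NFKB2, on group SDs of 0.03 and 0.07 with shPGC-1alpha and 0.07 and 0.03 with shGFP. The profiles of the 2 genes over the 6 arrays, each centred on its own mean, were 0.04 log2 units apart (root mean square), the smallest distance between any 2 of the 6 genes. Profiles were not scaled, so genes with close log2 differences lie near each other by this measure.

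Among the other subunits and their IkB partners, 1 of 5 measured genes rose (20%, against 9.58% of all genes) and 0 fell (0%, against 12.2%). At an unadjusted limma p of 0.05, 2 were higher and 0 lower. There were 10 listed, and the inhibitors NFKBIA, NFKBIB, NFKBIE, NFKBIZ and NFKBID were not analysed here. REL, the subunit c-Rel, rose to a mean of 8.29 ± 0.02 with shPGC-1alpha, against 7.99 ± 0.15 with shGFP (SD, n = 3 each), a log2 difference of 0.30 (SE 0.09, limma adjusted p 0.0473). That call held when shGFP replicate 1 was left out and was lost when any other array was, so the count of 1 was then 0. RELA, the transactivating subunit that pairs with the NFKB1 product, averaged 9.01 ± 0.06 with shPGC-1alpha and 9.07 ± 0.08 with shGFP, and its difference of -0.06 (SE 0.07) did not pass (limma adjusted p 0.609). BCL3, a nuclear IkB protein that binds the NFKB1 and NFKB2 products, was at -0.07 (adjusted p 0.648). The list had a median log2 difference of -0.06, against -0.02 over all genes.

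**Figure D2:**
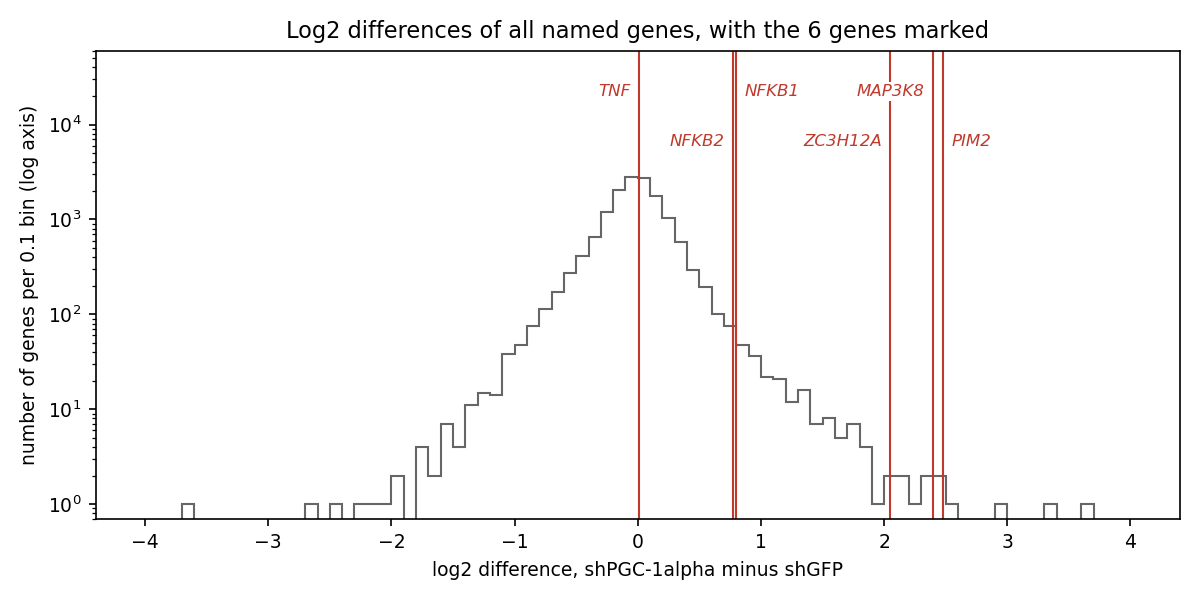
Number of named genes in each bin of 0.1 of the log2 difference, shPGC-1alpha minus shGFP, on a log axis, with red lines at the 6 genes. Lines of PIM2, MAP3K8 and ZC3H12A stand in the right tail, those of NFKB1 and NFKB2 at 0.80 and 0.77, and that of TNF at the centre.

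MAP3K8, on chromosome 10 at 30434021 to 30461833, read 8.56, 8.53 and 8.52 with shPGC-1alpha and 5.92, 5.92 and 6.58 with shGFP. The shPGC-1alpha arrays lay within 0.04 of each other, while shGFP replicate 3 stood above its companions, whose values were identical to the last decimal, as were those of 119 of 53617 probe sets in that pair. The log2 difference was 2.39 (SE 0.17), or 5.26-fold, with SDs of 0.02 with shPGC-1alpha and 0.38 with shGFP. Without shGFP replicate 3 it was 2.61. Its SE was the largest of the 6 genes.

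Of the receptor-proximal kinases and adaptors upstream of NF-kB, 20 of 28 listed were named here. Of these, 3 rose (15%, against 9.58% of all genes) and 2 fell (10%, against 12.2%), with a median of 0.09, and these shares are near those of all genes. IRAK2, which carries signals from Toll-like and interleukin-1 receptors, had the largest change, 8.93 ± 0.03 with shPGC-1alpha against 7.42 ± 0.22 with shGFP, a log2 difference of 1.51 (SE 0.11, limma adjusted p 0.000191). MAP3K7, the kinase TAK1 that activates the IkB kinases, fell by 0.72 (SE 0.06, limma adjusted p 0.000323). RBCK1, a subunit of the linear ubiquitin ligase, fell by 0.52 (adjusted p 0.00243). TBK1, a kinase related to the IkB kinases, and MAP3K14, the kinase NIK that starts processing of the NFKB2 precursor, rose by 0.30 and 0.26 (adjusted p 0.028 and 0.0472). These smaller calls were mostly lost with 1 array left out. TBK1 then passed only without shPGC-1alpha replicate 3 and MAP3K14 only without shGFP replicate 2. Their differences stayed at 0.26 to 0.35 and 0.23 to 0.32. Fewer genes passed with 1 array left out over all genes too, 1011 to 1170 that rose against 1426. Without shPGC-1alpha replicate 1 or 2 or shGFP replicate 1 or 3, the count of the list that rose was 1. RIPK2 and TAB3, at -0.24 and 0.11, did not pass (adjusted p 0.0506 and 0.241).

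Downstream of MAP3K8, 4 of 19 measured genes of the MEK and ERK route rose and 3 fell, of 24 listed. These are 21.1% and 15.8%, against 9.58% and 12.2% of all genes, and the median was 0.02. DUSP5, a nuclear phosphatase of ERK, averaged 9.39 ± 0.06 with shPGC-1alpha and 8.46 ± 0.04 with shGFP, a log2 difference of 0.93 (SE 0.06, limma adjusted p 0.000159), but its second probe set gave 0.39 (adjusted p 0.179). FOSL1, an AP-1 subunit induced by ERK, rose by 0.89 (SE 0.10, adjusted p 0.000822). TNIP2, the partner that stabilises the MAP3K8 protein, fell by 0.53 (SE 0.09, adjusted p 0.00671), and DUSP1, a phosphatase of MAP kinases, fell by 0.47 (adjusted p 0.00265). SPRY2, a feedback inhibitor of growth factor signalling to ERK, rose by 0.25 (adjusted p 0.0274), a call lost without any 1 of the 6 arrays. The early-response genes MYC and FOS, at -0.08 and 0.01, did not pass (limma adjusted p 0.435 and 0.978). MAP2K1, a MEK kinase that was picked out after its values were seen, rose by 0.28 (SE 0.08, limma adjusted p 0.0386). EGR1, another early-response gene that was picked out after its values were seen, fell by 0.47 (SE 0.13, limma adjusted p 0.0381). With shPGC-1alpha replicate 1 or 2 or shGFP replicate 2 or 3 left out, the count that fell was 2. DUSP1 and TNIP2 still passed then, so the EGR1 call was lost. EGR1 has 2 probe sets, of which the brighter is given. The count that rose was 3 without shGFP replicate 2 and 2 when any other array was left out.

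PIM2, on chromosome X at 48913182 to 48919024, read 10.09, 10.02 and 10.06 with shPGC-1alpha and 7.59, 7.53 and 7.61 with shGFP. The 6 values fell into 2 tight groups with SDs of 0.04 each, set 2.41 apart at their nearest arrays. The log2 difference was 2.48 (SE 0.06), or 5.57-fold, the largest of the 6 genes and the fifth largest increase among all named genes.

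In a list of PIM kinases, the JAK-STAT route that induces them and PIM substrates, 7 of 17 measured genes rose and 2 fell, of 20 listed. These are 41.2% and 11.8%, against 9.58% and 12.2% of all genes, and the median was 0.08. Of the other PIM kinases, PIM3 rose by 0.39 (SE 0.06, limma adjusted p 0.00421). PIM1, which was picked out after its values were seen, went the other way, at 8.65 ± 0.06 with shPGC-1alpha and 8.97 ± 0.04 with shGFP, a log2 difference of -0.32 (SE 0.07, adjusted p 0.0122). SOCS1 and SOCS3, inhibitors of JAK kinases, rose by 0.88 and 0.94 (adjusted p 0.00143 and 0.000797), although the second probe set of SOCS3 gave 0.44 (adjusted p 0.218). The kinase JAK1 and the phosphatase CDC25A, a PIM substrate that drives the cell cycle, both rose by 0.54 (adjusted p 0.000877 and 0.0018). AKT1S1 and TYK2, at -0.24 and -0.13, did not pass (adjusted p 0.158 and 0.327).

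**Figure D3:**
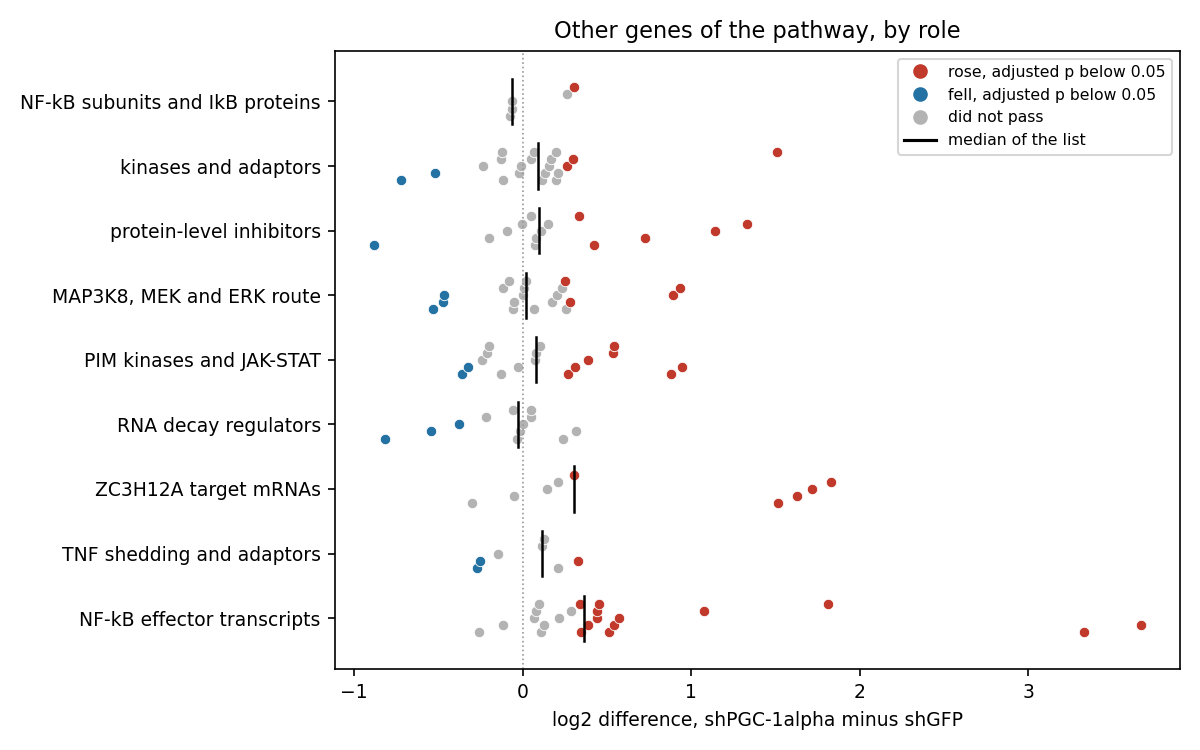
Log2 difference, shPGC-1alpha minus shGFP, of each measured gene outside the 6, grouped by role, with genes that rose in red, genes that fell in blue, genes that did not pass in grey and the median of each list as a black line. Medians lie between -0.06 and 0.37, and the largest values are those of the effector transcripts.

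ZC3H12A, on chromosome 1 at 37474580 to 37484377, read 9.62, 9.54 and 9.60 with shPGC-1alpha and 7.52, 7.49 and 7.60 with shGFP. All shPGC-1alpha arrays were at least 1.94 above all shGFP arrays. The log2 difference was 2.05 (SE 0.06), or 4.14-fold, with SDs of 0.04 with shPGC-1alpha and 0.05 with shGFP.

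Among its relatives and other regulators of inflammatory mRNA decay, 12 of 18 listed genes were measured, of which 0 rose and 3 fell. These are 0% and 25%, against 9.58% and 12.2% of all genes, and the median was -0.03. At an unadjusted limma p of 0.05, 1 was higher and 4 were lower, and 1 rose after adjustment without shGFP replicate 1. MALT1, the protease that cleaves the ZC3H12A protein in activated lymphocytes, averaged 9.73 ± 0.04 with shPGC-1alpha and 10.55 ± 0.02 with shGFP, a log2 difference of -0.82 (SE 0.06, limma adjusted p 0.000204). The paralog ZC3H12B fell by 0.54 (SE 0.08, adjusted p 0.00387) and the RNA-binding protein TIA1 by 0.38 (adjusted p 0.00635). RC3H1, the RNA-binding protein Roquin that acts on some of the same mRNAs, and KHSRP, at 0.05 and -0.02, did not pass (adjusted p 0.625 and 0.892).

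The transcripts that ZC3H12A is reported to cleave, several of them known from mouse, were measured for 9 of 17 listed genes, and IL6 was not analysed here. Of these, 5 rose (55.6%, against 9.58% of all genes) and 0 fell (0%, against 12.2%). The median was 0.30, and counts at an unadjusted limma p of 0.05 were the same. The neutrophil chemokines CXCL8, CXCL2 and CXCL3 rose by 1.83, 1.72 and 1.63 (limma adjusted p 2.52e-05, 7.78e-05 and 0.00179), and LCN2, an iron-carrier binding protein used as a marker of tubule injury, rose by 1.52 (adjusted p 0.000201). The fifth was REL. PTGS2 and CTLA4, at 0.21 and -0.30, did not pass (limma adjusted p 0.395 and 0.163). CTLA4 had means of 3.17 with shPGC-1alpha and 3.47 with shGFP, both below the level of 4.43 given above. PTGS2, at means of 4.57 with shPGC-1alpha and 4.36 with shGFP, lay close to that level.

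Inhibitors that act on signalling proteins rather than on mRNA were measured for 14 of 17 listed genes, and TNFAIP3 was not analysed here. Of the 14, 5 rose (35.7%, against 9.58% of all genes) and 1 fell (7.14%, against 12.2%), with a median of 0.09. IRAK3, an inhibitor of Toll-like receptor signalling, averaged 9.87 ± 0.08 with shPGC-1alpha and 8.54 ± 0.09 with shGFP, a log2 difference of 1.33 (SE 0.08, limma adjusted p 7.64e-05), while its second probe set gave 0.19 (adjusted p 0.0868). TNIP1, an adaptor that restrains NF-kB together with TNFAIP3, rose by 1.14 (SE 0.08, adjusted p 0.00014), and the deubiquitinase CYLD by 0.72 (SE 0.08, adjusted p 0.000761). TNIP3 rose by 0.42 (adjusted p 0.0109) at means of 3.86 with shPGC-1alpha and 3.44 with shGFP, both below the level of 4.43 given above, and the call was lost when values were floored at that level (difference 0, adjusted p 1). RNF11, a component of the TNFAIP3 complex, fell by 0.88 (SE 0.08, adjusted p 0.000417). The ubiquitin ligase ITCH and TAX1BP1, at -0.20 and 0.07, did not pass (adjusted p 0.058 and 0.547).

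TNF, on chromosome 6 at 31575565 to 31578336, read 5.42, 5.48 and 5.22 with shPGC-1alpha and 5.33, 5.35 and 5.42 with shGFP. The groups overlapped, and the lowest value was that of shPGC-1alpha replicate 3. Means were 5.37 ± 0.13 with shPGC-1alpha and 5.37 ± 0.05 with shGFP, and the log2 difference was 0.01 (SE 0.08). Of the 8 probe sets that name TNF, 7 held the same 6 values and so count as 1 measurement. The other read 4.97, 5.03 and 4.74 with shPGC-1alpha and 4.69, 4.82 and 4.89 with shGFP, a log2 difference of 0.11, and its groups overlapped too. RMA gives no detection call, and whether the TNF probes read above background is not known from these values.

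The shedding enzymes and adaptors of TNF were measured for 7 of 20 listed genes, and its receptors TNFRSF1A and TNFRSF1B were not analysed here. Of the 7, 1 rose (14.3%, against 9.58% of all genes) and 2 fell (28.6%, against 12.2%). ADAM17, the protease that releases TNF from the cell surface, rose by 0.33 (SE 0.06, limma adjusted p 0.00967), with means of 9.81 ± 0.02 with shPGC-1alpha and 9.48 ± 0.06 with shGFP. RHBDF2, which carries ADAM17 to the surface, and CFLAR, which blocks caspase activation at the receptor, fell by 0.27 and 0.25 (adjusted p 0.0281 and 0.0444). The median was 0.12, and LITAF and FADD, at 0.12 and 0.13, did not pass (adjusted p 0.259 and 0.425). The count that fell was 1 without shPGC-1alpha replicate 1 or shGFP replicate 1 and 0 without any other single array, and the count that rose was 2 without shGFP replicate 3.

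Transcripts often read as outputs of NF-kB were measured for 22 of 33 listed genes, of which 13 rose and 0 fell. These are 59.1% and 0%, against 9.58% and 12.2% of all genes, and the median was 0.37. At an unadjusted limma p of 0.05, 14 were higher and 0 lower. CCL20 and CXCL5, chemokines for lymphocytes and neutrophils, rose by 3.67 and 3.33 (SE 0.07 each, limma adjusted p 2.32e-06 each). CSF1, the macrophage growth factor, rose by 1.81 and the adhesion molecules ICAM1 and VCAM1 by 1.07 and 0.57 (adjusted p 3.36e-05, 7.6e-05 and 0.00158). SDC4 and KLF6, at 0.22 and -0.12, did not pass (adjusted p 0.0707 and 0.237). Over all 9 role lists, with each gene counted once, 38 of 124 measured genes rose (30.6%, against 9.58% of all genes) and 13 fell (10.5%, against 12.2%), with a median log2 difference of 0.11. The lists were assembled with earlier results of these arrays known, so these shares describe the lists and do not set them apart from other genes.

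Among genes outside the 6, the profile nearest to that of PIM2 over the 6 arrays was that of complement C3, at a root mean square distance of 0.03 log2 units after centring, followed by the R-spondin receptor LGR4, at 0.08. ZC3H12A lay nearest to the ubiquitin ligase RNF144B and the ectonucleotidase ENPP3, at 0.08 and 0.09, and MAP3K8 to C3 and ENPP3, at 0.19 and 0.22. Profiles of NFKB1 were nearest to those of YARS1 and NECAP1, at 0.04 each, and those of NFKB2 to TP53INP2 and ADCY9, also at 0.04 each. TNF lay nearest to SPDYC and UROC1, at 0.02 each, but 2134 genes were within 0.1 of it, against 101 for NFKB1, 122 for NFKB2, 2 each for ZC3H12A and PIM2 and 0 for MAP3K8. Within the set, MAP3K8, ZC3H12A and PIM2 lay 0.21 to 0.26 from each other, 0.63 to 0.85 from NFKB1 and NFKB2, and 1.03 to 1.24 from TNF. All these profiles were centred but not scaled, so the distances depend strongly on the sizes of the log2 differences. Shared behaviour from array to array was not tested.

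**Figure D4:**
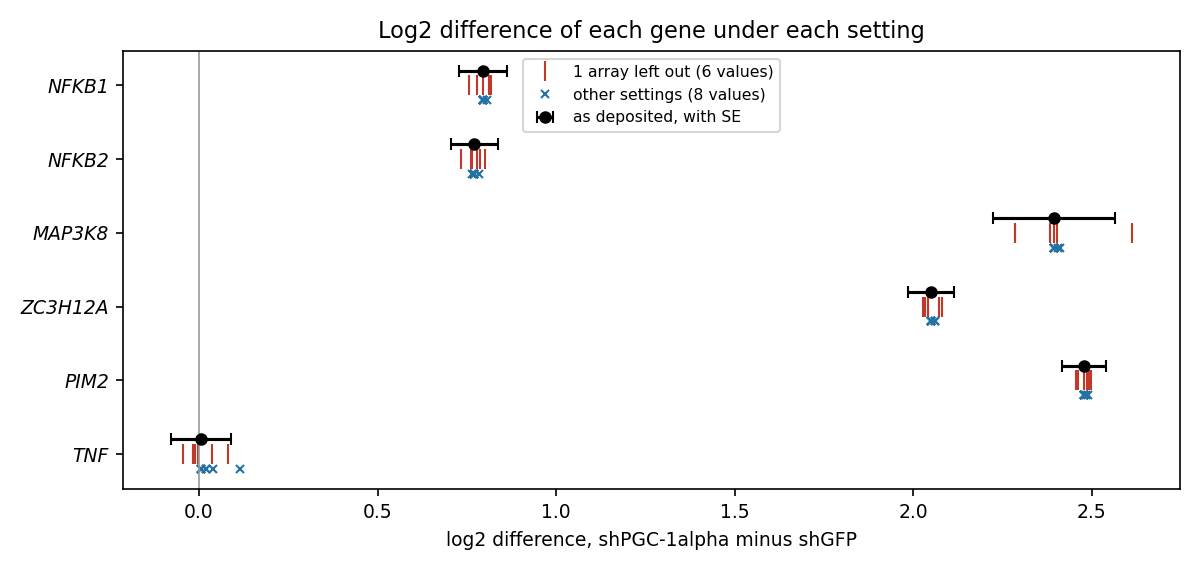
Log2 difference of each gene, shPGC-1alpha minus shGFP, as deposited with its SE (black), with each of the 6 arrays left out in turn (red) and under 8 other settings (blue). For the 5 higher genes the 2 rescalings are the settings among the 8 that can move the value, and with 1 array left out MAP3K8 lies between 2.28 and 2.61. TNF lies between -0.05 and 0.11.

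Markers of other cell types were measured in part, and their counts stand beside 9.58% of all genes that rose and 12.2% that fell. Of the fibroblast markers 2 of 7 were named here and both rose, LUM by 0.76 and DCN by 0.83 (limma adjusted p 0.000493 and 0.000554), and their summed level was 9.29 to 9.46 with shPGC-1alpha and 8.59 to 8.64 with shGFP, as log2 of the summed linear values, most of it from LUM at means of 9.33 with shPGC-1alpha and 8.57 with shGFP. Of 5 measured epithelial markers of 6, 0 rose and 3 fell (4 were lower and 0 higher at an unadjusted p of 0.05). KRT19, EPCAM and KRT18 were at -1.42, -0.73 and -0.31 (adjusted p 0.000159, 0.000531 and 0.00967), and sums were 10.29 to 10.35 with shPGC-1alpha and 10.98 to 11.05 with shGFP. KRT7 and KRT8, at -0.31 and -0.09, did not pass (adjusted p 0.0506 and 0.748). Of 6 leukocyte markers of 14, CD68 rose by 0.34 while CSF1R and TYROBP were at -0.48 and -0.28 (adjusted p 0.00895, 0.00274 and 0.0444). Their summed level was 11.52 to 11.62 with shPGC-1alpha and 11.26 to 11.31 with shGFP, and CD68, at means of 11.49 with shPGC-1alpha and 11.15 with shGFP, made up most of it. The other 5 had means of at most 6.60, and 1 of the 6 lay below 4.43 on every array. Of 5 endothelial markers of 7, 0 passed (limma; 1 was higher and 0 lower at an unadjusted p of 0.05), and 2 lay below 4.43 on every array. VWF was at -0.04 and CLDN5 at 0.03, with sums of 6.94 to 7.08 with shPGC-1alpha and 6.89 to 7.20 with shGFP. Of 5 proximal tubule markers of 14, PAX8 rose by 0.38 (adjusted p 0.00645) and 0 fell (0 lower at an unadjusted p of 0.05), with sums of 11.84 to 11.92 with shPGC-1alpha and 11.44 to 11.55 with shGFP that were mostly PAX8, and of 7 markers of other tubule segments AQP2 alone was named, at 0.08. The part of these marker shifts in the values of the 6 genes was not tested.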

How the data were processed

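Total RNA from 6 HK2 cultures was hybridised to Affymetrix arrays. The authors deposited 1 table of log2 expression values for 53617 probe sets. RMA (background correction, quantile normalisation between arrays and probe summarisation) and Affymetrix Expression Console are named in the submitters' processing notes without versions. Because quantile normalisation gives arrays a common distribution, a shift shared by most transcripts would be reduced. Scanner output and scan batches were not used here.

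Groups came from the sample titles, which call the samples biological replicates. The labels do not say whether transductions were independent, so p-values reflect sample-to-sample spread that may be technical. No 2 arrays were the same: 13 to 119 probe sets held the same value in any pair.

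The platform's annotation paired 16098 probe sets with a gene, which gave 14884 genes after symbols were updated through RefSeq GRCh38.p14, and 37519 probe sets are unnamed here. The highest-mean probe set stood for a gene. A linear model was fitted per gene (limma 3.58.1, R 4.3.3; lmFit and eBayes, two-sided, without a filter or block), with Benjamini-Hochberg adjustment over all 14884 genes and a threshold of 0.05, and log2 differences are shPGC-1alpha minus shGFP. An exact permutation test of 3 arrays against 3 cannot give a p below 0.1, so none was used. The procedure was checked on simulated data.

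The 6 genes and the 9 role lists and 6 marker lists were chosen with earlier results of these data known. Text names the 6 genes, up to 5 genes per list with the smallest p among those that passed, up to 2 with the highest mean among those that did not, and the 2 nearest profiles of each of the 6. Alternatives were leaving out single arrays, blocking on the replicate number, filters and floors for dim genes, other probe set choices, other scalings and another variance model. For promoters, RefSeq windows were searched as described with them.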

Additional observations from a re-analysis of the deposited data

How the results depend on the processing

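The block, the variance model, the filter, the floor and the probe set choices cannot move the differences of NFKB1, NFKB2, MAP3K8, ZC3H12A and PIM2, which are bright and have 1 probe set each. The 2 rescalings gave at most 0.81, 0.78, 2.41, 2.06 and 2.49. With 1 array left out they ran from 0.76 to 0.82, 0.73 to 0.80, 2.28 to 2.61, 2.03 to 2.08 and 2.46 to 2.50. TNF ran from -0.05 to 0.08, changing sign, and moved to 0.11 with its lowest-mean probe set. Over all genes the count that rose was 1426, and 1011 to 1170 with 1 array left out, and the count that fell was 1817, and 1301 to 1502.

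The replicate number as a block gave 1221 genes that rose and 1552 that fell, 0 subunit and IkB genes, 2 genes of the ERK route and 1 RNA decay gene that rose, and 0 TNF adaptor genes that fell. Same-numbered arrays deviated together at r = 0.117, 0.0874 and 0.023, and arrays of different number at r = -0.123 to 0.0573. Of the 6 arrays, 5 correlated best with their own number. These values do not settle whether the numbers pair the samples, and the main fit used no block.

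Without genes below the 20th percentile, 2 protein-level inhibitors fell and 1 RNA decay gene rose, as with quantile normalisation repeated and with trend and robust variance, and 2 inhibitors fell with floored values. With the lowest-mean probe sets or floored values 0 subunit genes rose. With arrays set to one median or quantile normalisation repeated 1 TNF adaptor gene fell, and 1 effector transcript fell with trend and robust variance and with floored values. Scaling changed the median of all genes by less than 0.1, and the share of calls that were higher stayed between 41.7% and 48.6%. With 1 array left out, ranges of genes that rose and fell were 0 to 1 and 0 for subunits, 1 to 2 and 2 for kinases, 4 to 5 and 1 for inhibitors, 2 to 3 and 2 to 3 for the ERK route, 5 to 6 and 2 for PIM and JAK-STAT genes, 0 to 1 and 3 for RNA decay, 4 to 5 and 0 for ZC3H12A targets, 1 to 2 and 0 to 1 for TNF adaptors, and 10 to 13 and 0 for effector transcripts.

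Among the named genes outside the 6 that did not pass, differences changed sign for 4. FOS was -0.00594 with the mean of its probe sets and -0.0187 with the lowest, TAB3 was -0.0208 with the mean and -0.154 with the lowest, and with 1 array left out FOS ran from -0.132 to 0.0837, BCL3 from -0.118 to 0.00329 and KHSRP from -0.0576 to 0.0138. The cause of these changes was not tested. RMA values carry no signal over background, so how far dim genes such as TNIP3 stand above it is not known.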
